A study of Mus musculus with 29 samples.

Results

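The 10 genes described here are the satellite cell and myogenic regulator genes Pax7, Calcr, Vcam1, Cdh15, Myf5, Myod1, Myf6, Mef2c, Mymk and Des, out of 24770 gene symbols in the count table. They were listed by name, and 9 were found under their own symbol, and Mymk was found under its older symbol Tmem8c. The study asked how calorie restriction (CR), treadmill exercise training (EX) and both together (CREX) alter the transcriptome of gastrocnemius muscle, written SkM, and of brown adipose tissue (BAT). Muscle RNA of 14 mice was sequenced, 1 library per mouse, from 4 control, 4 EX, 3 CR and 3 CREX animals. All were male wild-type C57BL/6J mice that were 8 weeks old when the intervention of 8 weeks began, and all were fasted for 6 h before the tissues were taken. Control mice were sedentary with free access to food, and EX mice also ate freely and ran at 12 m/min for 1 h on 5 days per week. Food intake of the CR and CREX mice was lowered step by step to 70% of free intake, the CREX mice ran like the EX mice, and both running groups were killed 24 h after the last bout.

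Satellite cells are the stem cells of skeletal muscle and lie between the fibre and its basal lamina. Pax7 is the transcription factor that defines them, and in the quiescent state they also carry the calcitonin receptor Calcr, the adhesion molecule Vcam1 and the cadherin Cdh15 (M-cadherin). When they are activated, the basic helix-loop-helix factors Myf5 and Myod1 commit them to the muscle lineage, and Mymk (myomaker) lets myoblasts fuse. Myf6 (Mrf4), the transcription factor Mef2c and the intermediate filament protein Des (desmin) belong to the differentiated fibre. Several of these genes are not limited to satellite cells: Myod1, Myf6, Mef2c and Des are transcribed by nuclei of adult fibres, and Vcam1 is also an endothelial gene. In RNA from whole muscle, fewer cells of a type and less RNA per cell cannot be told apart.

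The genes lie on 9 chromosomes in RefSeq's annotation of GRCm38.p6. Myf5 (chr10:107482908-107486927) and Myf6 (chr10:107492848-107494723) are neighbours on the minus strand of chromosome 10, with 5920 bases between them. Myod1 is at chr7:46376474-46379092, Cdh15 at chr8:122848374-122867397 and Des at chr1:75360292-75368579, all on the plus strand, and Vcam1 is at chr3:116110020-116129688 and Pax7 at chr4:139737059-139833530 on the minus strand. Exons of Des share 220 bases, 5.86% of their length, with the antisense gene Gm15179, and those of Vcam1 share 61 bases, 0.688%, with the antisense gene Gm43109. The RSEM command given for the counting sets no strand option, so strand was not used to separate reads in the shared bases. Whether the antisense genes were in the annotation used for counting is not given.

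Myogenic helix-loop-helix factors such as Myod1 and Myf6 bind E-boxes, with the letters CANNTG. Cdh15 and Des, a cell surface and a fibre gene, were higher in every CR library than in every control library. Their promoters are shown as examples with more than 1 such match. They are the 250 bases before the transcription start in RefSeq's table for GRCm38.p6, 5′ to 3′ on the plus strand, chr8:122848124-122848373 for Cdh15 and chr1:75360042-75360291 for Des, and capitals mark each CANNTG.
Cdh15: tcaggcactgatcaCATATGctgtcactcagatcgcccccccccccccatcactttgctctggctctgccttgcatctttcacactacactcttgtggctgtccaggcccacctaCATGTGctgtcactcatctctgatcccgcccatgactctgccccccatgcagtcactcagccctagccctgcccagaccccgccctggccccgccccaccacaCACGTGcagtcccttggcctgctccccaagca
Des: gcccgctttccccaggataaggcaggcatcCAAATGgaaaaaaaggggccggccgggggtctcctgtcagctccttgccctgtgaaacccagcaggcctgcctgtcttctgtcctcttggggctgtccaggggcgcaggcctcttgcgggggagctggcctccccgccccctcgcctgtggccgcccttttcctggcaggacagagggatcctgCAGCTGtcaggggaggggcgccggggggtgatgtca
The Cdh15 window holds 3 matches and the Des window 2, of which 1 has the form CAGCTG. The general pattern CANNTG, which reads the same way on both strands as a pattern, occurs at least 1 time in 66.2% of 32851 promoter windows of this length and at least 3 times in 12.2%, and CAGCTG, which is one form of CANNTG, occurs in 13.0%. The windows of Pax7 and Myf5 hold no CANNTG, and the 2 windows of Calcr hold 0 and 1. Mef2c, with a lower mean in CR than in control mice, has 3 windows with 2, 0 and 1 matches. A match to these letters is a description of the sequence and not evidence of binding. No windows were available here for Myod1, Myf6, Vcam1 and Mymk.

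Each muscle library held between 23050928 and 23425293 counts, and 3 counts correspond to 0.128 to 0.130 CPM (counts relative to library size) before scaling, a limit for counting error only. Levels are given as CPM scaled with TMM factors, and levels of different genes are compared only as CPM per kilobase of exon. The libraries carried the RNA of skeletal muscle: the actin gene Acta1 stood at 21967 CPM or more in each, and the brown fat gene Ucp1 at 0.139 CPM or less. CREX replicates 2 and 3 stood apart from the other libraries, with a summed level of 7 slow fibre markers of 98.97 and 36.0 CPM against 372 to 2115 CPM elsewhere. Results with CREX libraries are therefore also given without these 2, which leaves CREX as 1 mouse that is assumed to vary like the other groups.

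Per exon length, fibre genes stood at the top of the order, and Pax7, Vcam1, Calcr and Mymk at its foot. Cdh15, also a gene of quiescent satellite cells, stood higher than these. Des had a median of 859 CPM per kb over the 14 muscle libraries, followed by Myf6 at 47.5, Mef2c at 18.8, Myod1 at 10.9 and Cdh15 at 4.80 CPM per kb. Myf5 followed at 0.658, Pax7 at 0.300, Vcam1 at 0.190, Calcr at 0.115 and Mymk at 0.0449 CPM per kb. Among these neighbours the library ranges of Des and Myf6, of Myf6 and Mef2c and of Cdh15 and Myf5 did not overlap, and the ranges of the other neighbours did. In the 15 BAT libraries 9 of the 10 genes had a lower median than in muscle, and Vcam1 had a higher one, 3.63 against 1.68 CPM.

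**Figure D1:**
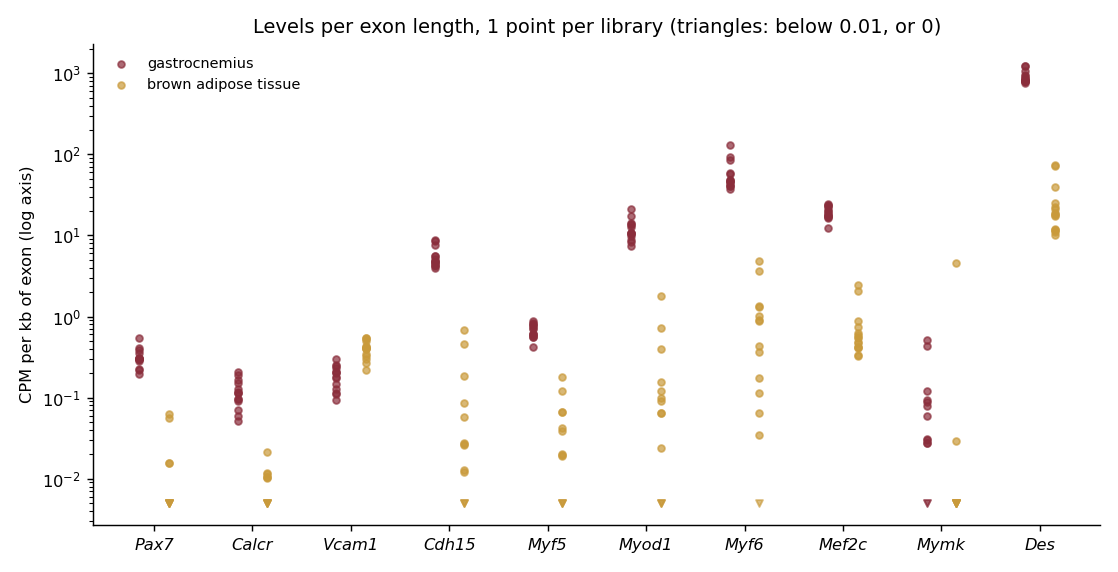
Level of each gene in CPM per kb of exon on a log axis, 1 point per library, for 14 gastrocnemius and 15 brown adipose tissue libraries. Triangles at the foot stand for levels below 0.01 CPM per kb, 0 included. Des is highest in muscle, with a median of 859 CPM per kb, and Vcam1 is the gene with a higher median in brown adipose tissue.

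The effect of CR over both training states was tested first, as the mean of CR and CREX against the mean of control and EX in 1 edgeR fit of all 14 libraries. Differentially expressed genes (DEGs) are those that changed more than 1.5-fold with an adjusted p below 0.05. Of the 9 tested genes 4 were DEGs: Cdh15, Myf6 and Myod1 rose and Vcam1 fell. The count was 2 without CREX replicate 2 (Myf6 and Vcam1) and also 2 without CREX replicates 2 and 3 (Myod1 and Vcam1). Over all 13588 genes tested, 14.1% were DEGs for this effect, 6% higher and 8.12% lower. These shares belong to the fit of all 14 libraries, and none is given for fits with libraries left out. The 9 genes had a median log2 fold change of 0.31, with 5 above and 4 below 0, and the median of all genes was 0.00. Mymk had 0 to 19 counts per library and was not tested. Pax7, the defining satellite cell gene, was not a DEG.

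**Figure D2:**
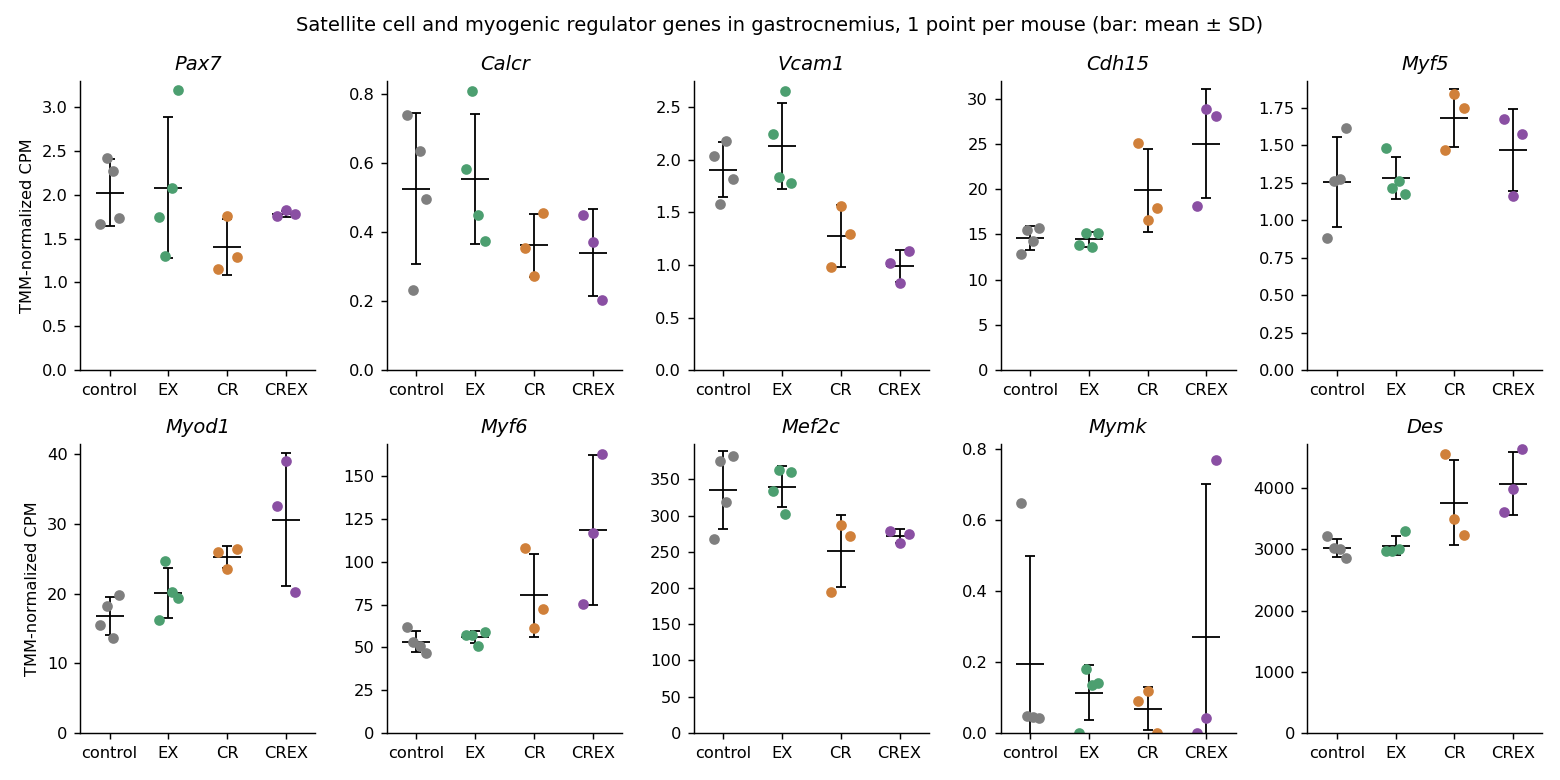
TMM-normalized CPM of the 10 genes in gastrocnemius, 1 point per mouse, with the mean and SD of each group as a bar (4 control, 4 EX, 3 CR and 3 CREX; bars that would reach below 0 end at the axis). For Cdh15 every CR and CREX point lies above every control and EX point, and for Vcam1 every one lies below.

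Pax7 was measured with 26 to 68 counts per library. It stood at 1.67, 2.42, 2.27 and 1.74 CPM in control, 1.75, 1.30, 2.07 and 3.19 CPM in EX, 1.16, 1.76 and 1.29 CPM in CR and 1.75, 1.82 and 1.78 CPM in CREX mice. The groups overlapped, and the 3 CREX values lay within the range of the control values. Its log2 fold change for the CR main effect was -0.37 (SE 0.19, 95% interval -0.77 to 0.04, edgeR adjusted p = 0.144), an interval that leaves room for a fall but not for a rise of 1.5-fold.

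Calcr, whose receptor keeps satellite cells quiescent, was lower still, with 5 to 18 counts per library. Its levels ran from 0.233 to 0.741 CPM in control, 0.375 to 0.808 CPM in EX, 0.274 to 0.456 CPM in CR and 0.202 to 0.449 CPM in CREX mice, with overlap between groups. The log2 fold change for the CR main effect was -0.61 (SE 0.30, edgeR adjusted p = 0.126), and the interval from -1.25 to 0.03 shows how little so few counts can resolve. In CREX against CR it did not pass the filter on low counts.

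Vcam1, which mediates adhesion of satellite cells and of leukocytes to endothelium, was measured with 20 to 59 counts per library and fell. Its levels were 2.04, 1.58, 2.18 and 1.82 CPM in control, 2.25, 1.84, 2.66 and 1.78 CPM in EX, 0.978, 1.57 and 1.29 CPM in CR and 1.02, 0.8289 and 1.13 CPM in CREX mice. All 6 restricted mice lay below all 8 freely fed mice, although CR replicate 2 at 1.57 CPM lay just under the lowest control at 1.58 CPM. Groups without overlap were found for 4.81% of all genes in the higher and 5.87% in the lower direction. For the CR main effect its log2 fold change was -0.83 (SE 0.16, edgeR adjusted p = 0.0013), a 1.78-fold lower level. Without CREX replicates 2 and 3 it was -0.82 (edgeR adjusted p = 0.0145), and Vcam1 stayed a DEG under each of 21 alternatives. The endothelial markers moved with it: the sum of 6 such genes ran from 251 to 316 CPM in control and EX and from 112 to 224 CPM in CR and CREX libraries, 3 of the 6 (Emcn, Cdh5 and Kdr) were lower DEGs, 2 of the 6 without CREX replicates 2 and 3, and none was at 0 in every library. Their part in the fall of Vcam1 was not tested.

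Cdh15 links satellite cells to the fibre membrane and is among the surface proteins used to recognise them. It stood at 12.9, 15.5, 14.2 and 15.7 CPM in control, 13.9, 15.1, 13.6 and 15.2 CPM in EX, 25.1, 16.6 and 17.9 CPM in CR and 18.1, 28.9 and 28.1 CPM in CREX mice. The 8 freely fed mice lay close together, the 6 restricted mice all lay above them, and CR replicate 1 and CREX replicates 2 and 3 were the highest. Its log2 fold change was 0.62 for the CR main effect (SE 0.11, edgeR adjusted p = 9.2e-04), a 1.53-fold higher level, close to the fold change minimum. Without CREX replicates 2 and 3 it was 0.38 (edgeR adjusted p = 0.0355), which is under that minimum. It was also under the minimum without CR replicate 1 (0.52), without CREX replicate 2 (0.56) or without CREX replicate 3 (0.57), with an adjusted p under 0.05 each time.

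Myf5 and Myod1 are the factors that commit cells to the muscle lineage, and only the second was a DEG; the difference between them was not tested. Myf5, with 19 to 47 counts per library, had means of 1.26 ± 0.30 CPM in control (SD, n = 4), 1.28 ± 0.14 CPM in EX (n = 4), 1.68 ± 0.19 CPM in CR (n = 3) and 1.47 ± 0.27 CPM in CREX mice (n = 3). Its log2 fold change for the CR main effect was 0.31 (SE 0.16, 95% interval -0.03 to 0.65, edgeR adjusted p = 0.146), and its groups overlapped.

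Myod1 stood at 15.5, 18.2, 13.6 and 19.8 CPM in control, 16.2, 24.7, 20.2 and 19.3 CPM in EX, 25.9, 23.5 and 26.5 CPM in CR and 32.6, 39.1 and 20.2 CPM in CREX mice. The CR mice lay above every control mouse, whereas CREX replicate 3 lay within the EX range. For the CR main effect Myod1 had a log2 fold change of 0.60 (SE 0.14, edgeR adjusted p = 0.0040), a 1.52-fold higher level, so this gene also sits at the fold change minimum. It was a DEG in 15 of 21 alternatives and lost the call, on fold change alone, without any 1 of 6 libraries (CR 3, CREX 1, CREX 2, EX 1, control 1 and control 3), with values from 0.49 to 0.58. Without both CREX replicates 2 and 3 the log2 fold change was 0.64 (edgeR adjusted p = 0.00313).

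Myf6, the helix-loop-helix factor of mature fibres, had the highest level of its family in these libraries, and it rose. It stood at 61.8, 53.4, 51.1 and 47.0 CPM in control, 57.0, 57.2, 50.9 and 58.9 CPM in EX, 108, 61.1 and 72.4 CPM in CR and 75.4, 117 and 163 CPM in CREX mice. CR replicate 2 lay just under the highest control mouse, and the other 5 restricted mice lay above all freely fed ones. Over both training states Myf6 had a log2 fold change of 0.84 (SE 0.15, edgeR adjusted p = 0.0010), a 1.79-fold higher level. Without CREX replicates 2 and 3 it was 0.51 (edgeR adjusted p = 0.0210), under the fold change minimum, and in the other 20 alternatives Myf6 was a DEG.

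Mef2c and Des, both fibre genes, had an adjusted p under 0.05 for the CR main effect but a fold change under 1.5. Mef2c, a partner of the helix-loop-helix factors, had means of 336 ± 53.8 CPM in control (SD, n = 4), 340 ± 28.3 CPM in EX (n = 4), 251 ± 50.1 CPM in CR (n = 3) and 272 ± 9.20 CPM in CREX mice (n = 3), with a log2 fold change of -0.37 (SE 0.11, edgeR adjusted p = 0.0147). Des, whose filaments tie neighbouring Z-discs together, stood at 3214, 3016, 3007 and 2857 CPM in control, 2979, 2981, 3001 and 3294 CPM in EX, 4557, 3501 and 3237 CPM in CR and 3607, 3987 and 4640 CPM in CREX mice. CR replicate 3 lay between the highest control and the highest EX mouse, and the other 5 restricted mice lay above all freely fed ones. The log2 fold change of Des was 0.36 (SE 0.09, edgeR adjusted p = 0.0079). With no fold change minimum 6 of the 9 tested genes passed, 4 higher and 2 lower, Des and Mef2c included, against 16.5% higher and 17% lower of all genes. Both lost the adjusted p without CREX replicates 2 and 3, at 0.0954 for Des and 0.0903 for Mef2c.

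Mymk, the fusion protein of myoblasts, was near the counting limit, with 1 to 14 counts in control, 0 to 4 in EX, 0 to 3 in CR and 0 to 19 in CREX libraries. The 2 highest counts, 14 and 19, came from 1 control and 1 CREX mouse. No fold change is given for it.

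The comparisons of single groups followed. In sedentary mice, CR against control, Myod1 was the DEG among the 9 tested genes, with a log2 fold change of 0.60 (SE 0.13, edgeR adjusted p = 0.0151); of all 13151 genes 9.58% were DEGs, 4.28% higher and 5.3% lower. The count of 1 in 9 lies near that background. Libraries of Vcam1, Cdh15, Myod1 and Des did not overlap between CR and control, which was so for 13.1% of all genes in the higher and 14.5% in the lower direction. Myf6 had a log2 fold change of 0.60 and Cdh15 of 0.45, with edgeR adjusted p = 0.0507 and 0.0706, and Vcam1 had -0.56 with an adjusted p of 0.130. Without CR replicate 1 Myf6 had 0.33 and Cdh15 0.25 (edgeR adjusted p = 0.0969 and 0.176). Myod1 was not a DEG without CR replicate 1, CR replicate 3, control replicate 1 or control replicate 3, and Myf6 became one in 7 of 15 alternatives.

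In trained mice, CREX against EX, 3 of the 9 tested genes were DEGs, against 8.88% of 13091 genes (3.7% higher and 5.17% lower). Myf6 rose with a log2 fold change of 1.07 (SE 0.21, edgeR adjusted p = 0.0163), Cdh15 rose with 0.78 (SE 0.15, adjusted p = 0.0130) and Vcam1 fell with -1.11 (SE 0.25, adjusted p = 0.0224). The groups did not overlap for any of the 3, nor for Des and Mef2c, which was so for 13.1% of all genes in the higher and 14.6% in the lower direction. Myod1 had 0.60 (SE 0.22, adjusted p = 0.102), Des 0.40 (adjusted p = 0.0539) and Pax7 -0.22 (adjusted p = 0.625). Without CREX replicates 2 and 3, with 1 CREX mouse left, the log2 fold changes were 0.45 for Myf6, 0.35 for Cdh15 and -1.04 for Vcam1. Those of Myf6 and Cdh15 were then under the fold change minimum, and that of Vcam1 was beyond it. Whether Vcam1 was still a DEG with 1 CREX mouse is not given. For CREX against EX it was a DEG in 11 of 16 alternatives. Leaving out CREX replicate 2 alone left 0 DEGs among the members, with values of 1.09 for Myf6, 0.67 for Cdh15 and -0.98 for Vcam1. The count was 1 without EX replicate 2 or without EX replicate 3.

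**Figure D3:**
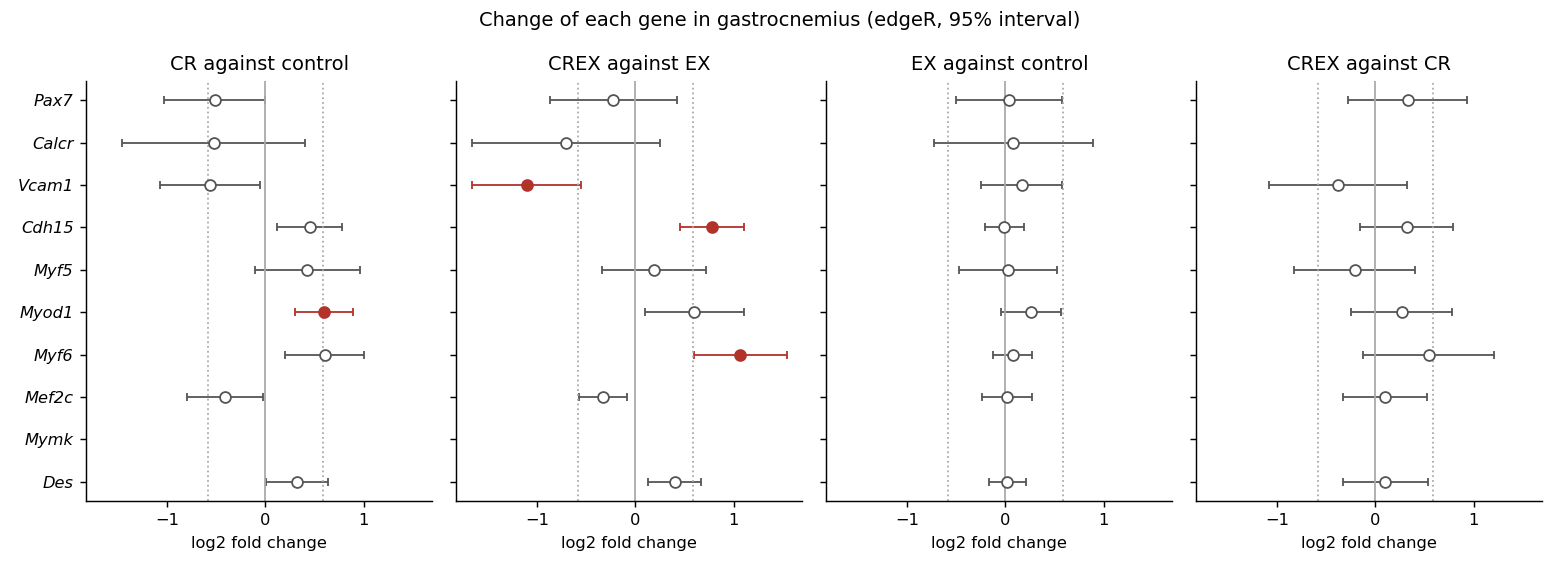
Log2 fold change of each tested gene in the 4 comparisons of single groups, with 95% intervals from edgeR; filled red points are DEGs and dotted lines mark a fold change of 1.5. Myod1 is filled for CR against control and Vcam1, Cdh15 and Myf6 are filled for CREX against EX, and no point is filled in the comparisons for EX.

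Training moved none of the genes past the thresholds. In EX against control 0 of the 9 tested genes were DEGs, against 0.0776% of 12886 genes, and the log2 fold changes ran from -0.01 for Cdh15 to 0.26 for Myod1. In CREX against CR 0 of 8 tested genes and 0% of 13047 genes were DEGs, and Myf6 had the largest value, 0.54 (95% interval -0.13 to 1.21), which was -0.09 without CREX replicates 2 and 3. The EX main effect called 0 of the 9 genes, against 0.0294% of 13588. With unadjusted p and the fold change minimum the count was still 0 in all 3 tests, and it was 0 with DESeq2. For Cdh15, Myf6, Mef2c and Des the 95% intervals of EX against control lay between -0.23 and 0.27, so a change of 1.5-fold in freely fed mice lay outside them.

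Whether the effect of CR differed between sedentary and trained mice was tested as an interaction. Of all 13588 genes 0% passed, and the members' edgeR adjusted p was 0.940 or higher (0 of them at unadjusted p, and 0 with DESeq2), so the larger values of Myf6 and Vcam1 in trained mice were not shown to differ from those in sedentary mice. The estimates were 0.49 for Myf6 (95% interval -0.18 to 1.15), 0.35 for Cdh15 (-0.14 to 0.83), -0.53 for Vcam1 (-1.21 to 0.15) and 0.01 for Myod1 (-0.57 to 0.60). For Myf6 and Cdh15 the sign turned without CREX replicates 2 and 3, to -0.16 and -0.12, and Vcam1 then had -0.49 and Myod1 0.10.

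The fibre type markers differed between the same libraries. The sum of 5 fast fibre markers ran from 44778 to 61056 CPM in control and EX and from 65719 to 91351 CPM in CR and CREX libraries, and 2 of the 5, Actn3 and Mylpf, were higher DEGs for the CR main effect, Mylpf not without CR replicate 1 and not without CREX replicates 2 and 3 (0.56, adjusted p = 0.0629). The 3 CR libraries had slow fibre sums of 1727 to 2028 CPM, within the range of the control libraries, and the 3 CREX libraries 36.0 to 611 CPM. The highest Myf6 level and the highest Cdh15 levels were those of CREX replicates 2 and 3, while CR replicate 1, with a slow fibre sum of 1727 CPM, had the next highest of both. These 3 libraries also had the highest fast fibre sums, 91351 and 80433 CPM in CREX replicates 2 and 3 and 82122 CPM in CR replicate 1. The part of the fibre markers in the rise of Myf6, Cdh15 and Myod1 was not tested.

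**Figure D4:**
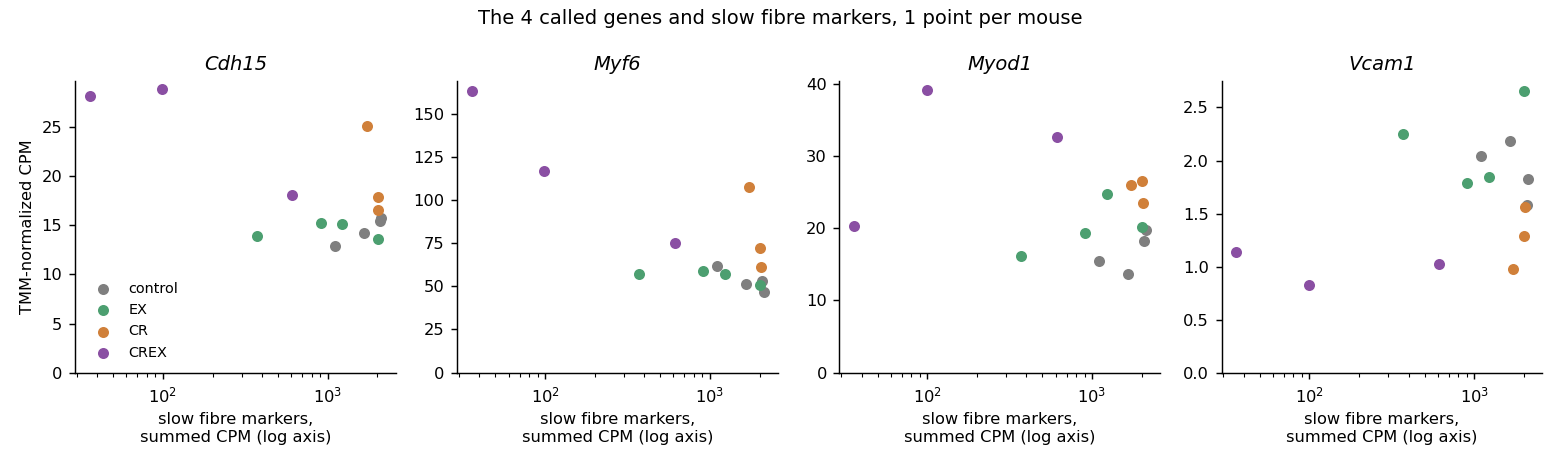
TMM-normalized CPM of the 4 DEGs against the summed CPM of 7 slow fibre markers on a log axis, 1 point per mouse, coloured by group. CREX replicates 2 and 3, at 98.97 and 36.0 CPM of slow fibre markers, carry the highest Cdh15 and Myf6 levels, and the CR libraries lie at the slow fibre level of the controls.

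Other genes of the same pathways were described as lists, by their counts for the CR main effect, beside the background of 6% higher and 8.12% lower among all genes. Of 14 tested genes of satellite cell surface and identity, 0 were higher and 1 was lower, with a median log2 fold change of -0.16. The lower DEG was Barx2, a homeobox gene of myoblasts, at -1.75 (SE 0.49, edgeR adjusted p = 0.0173), named after its values were seen; it stood at 0.746 and 0.324 CPM in CREX replicates 2 and 3 and was no DEG without them (-1.12, adjusted p = 0.117). Under the fold change minimum were Cd34, a surface protein of satellite and endothelial cells, at 24.5 ± 2.87 CPM in 6 restricted and 35.7 ± 4.24 CPM in 8 freely fed mice (means and SD, log2 fold change -0.54, edgeR adjusted p = 5.6e-04), and Itga7, the laminin receptor of fibres and satellite cells, at 77.5 ± 5.14 and 60.3 ± 5.92 CPM (0.36, adjusted p = 0.0012). Both had libraries that did not overlap between restricted and freely fed mice. With no fold change minimum 1 of the 14 genes passed as higher, Itga7, and 5 as lower, Cd34 included.

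Of 18 genes of Notch signalling and quiescence 4 were higher and 3 were lower, with a median of -0.08. Foxo3, a transcription factor of quiescence and of muscle protein breakdown, was highest in the restricted mice, at 35.5 ± 3.70 CPM (SD, n = 6) against 16.1 ± 1.83 CPM (SD, n = 8), a log2 fold change of 1.13 (SE 0.09, edgeR adjusted p = 5.4e-07). The Notch target Hes1 fell from 10.4 ± 2.36 to 5.07 ± 1.49 CPM (-1.06, SE 0.14, adjusted p = 8.1e-05), and the receptor Notch2 rose from 6.51 ± 0.77 to 10.6 ± 2.02 CPM (0.69, SE 0.11, adjusted p = 3.0e-04). The libraries of Foxo3, Hes1 and Notch2 did not overlap. The remaining DEGs, named after their values were seen, were the cell cycle inhibitors Cdkn1a (0.96) and Cdkn1c (0.90), higher, and the Notch target Heyl (-0.85) and the collagen Col5a1 (-0.77), lower. Without CREX replicates 2 and 3 the count was 4 in place of 7, and Notch2 (0.57), Heyl (-0.58) and Cdkn1a (0.87, adjusted p = 0.0822) were not DEGs.

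Of 21 regulators and partners of the myogenic factors 2 were higher and 2 were lower, with a median of -0.06. Hdac9, a deacetylase that represses Mef2 proteins, fell from 5.25 ± 0.86 to 1.78 ± 0.70 CPM (-1.55, SE 0.22, edgeR adjusted p = 1.3e-04), and the homeobox factor Six4 fell from 17.0 ± 3.20 to 9.13 ± 2.22 CPM (-0.88, SE 0.13, adjusted p = 2.3e-04). Both stayed DEGs without CREX replicates 2 and 3. Srf, the serum response factor, was 1 of the genes under the fold change minimum (-0.45, adjusted p = 0.0013). The higher DEGs, named after their values were seen, were Msc, a repressor of the family (0.63, adjusted p = 0.0347, called in 7 of 20 alternatives), and Myog, the factor of terminal differentiation.

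Myog completed the family of 4 helix-loop-helix factors and was spread unevenly. It stood at 5.51, 2.98, 3.23 and 3.06 CPM in control, 3.28, 4.00, 3.02 and 3.33 CPM in EX, 34.0, 4.58 and 5.43 CPM in CR and 5.14, 9.24 and 5.06 CPM in CREX mice. A single mouse, CR replicate 1, was far above the others and was also the highest CR mouse for Cdh15, Myf6 and Des. Myog had a log2 fold change of 1.45 (SE 0.43, edgeR adjusted p = 0.0216) and 0.68 (adjusted p = 0.0122) without that mouse, and Myog was no DEG without CREX replicate 2 (1.28, adjusted p = 0.0564) or without CREX replicates 2 and 3 (1.28, adjusted p = 0.167).

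Of 13 tested fusion genes 0 were higher and 2 were lower. Jam3 and Jam2, junctional adhesion molecules found on myoblasts and also on endothelium, fell from 9.48 ± 0.63 to 4.49 ± 1.29 CPM (-1.10, SE 0.12, edgeR adjusted p = 1.2e-05) and from 47.4 ± 6.44 to 30.0 ± 6.99 CPM (-0.66, SE 0.14, adjusted p = 0.0020). Jam2 was under the fold change minimum without CREX replicates 2 and 3 (-0.43). Of 9 tested genes of embryonic and regenerating fibres 3 were higher and 0 were lower: the acetylcholine receptor subunit Chrna1 (0.91, SE 0.13, adjusted p = 1.7e-04), Cdkn1c, which is also in the quiescence list (0.90, SE 0.14, adjusted p = 3.5e-04), and the embryonic light chain Myl4 (0.70, SE 0.22, adjusted p = 0.0213). Myl4 lost the call without CR replicate 1, without CREX replicate 2 and without CREX replicates 2 and 3 (0.56, adjusted p = 0.146).

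Around desmin, 1 of 18 genes of the Z-disc cytoskeleton was higher and 2 were lower, with a median of -0.24. The chaperone of desmin filaments, Cryab, fell from 795 ± 113 to 476 ± 153 CPM (-0.77, SE 0.17, edgeR adjusted p = 0.0028), and the Z-disc genes Actn2 (-0.74) and Pdlim3 (0.61), named after their values were seen, were the others, called in 4 and 15 of 21 alternatives. None of these 3 genes was a DEG without CREX replicates 2 and 3, with values of -0.49 for Cryab, -0.25 for Actn2 and 0.29 for Pdlim3, and 1 other gene of the list was. Sync, which binds desmin, and Xirp2 had -0.52 and -0.50, under the fold change minimum. The direction of Des, higher in restricted mice, was thus that of 6 of these 18 genes, and 12 had values below 0.

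Of 14 genes of cell division 7 passed the filter on low counts, and 1 was higher and 1 lower. Ccnd1, the cyclin of entry into the cycle, fell from 3.93 ± 1.31 to 1.18 ± 0.45 CPM (-1.71, SE 0.25, edgeR adjusted p = 1.6e-04), and the replication factor Mcm5 rose from 0.685 ± 0.133 to 1.24 ± 0.30 CPM (0.83, SE 0.19, adjusted p = 0.0039). Among markers of other cell types, 3 of 6 fibro-adipogenic progenitor genes were lower DEGs, with Col3a1 at -2.42 and Col1a1 at -2.30, 1 of 6 smooth muscle and pericyte genes was lower (Cspg4, -0.95), 1 of 7 slow fibre genes was lower (Atp2a2, -1.41, called in 7 of 21 alternatives), and none of the macrophage, Schwann or adipocyte genes was a DEG.

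**Figure D5:**
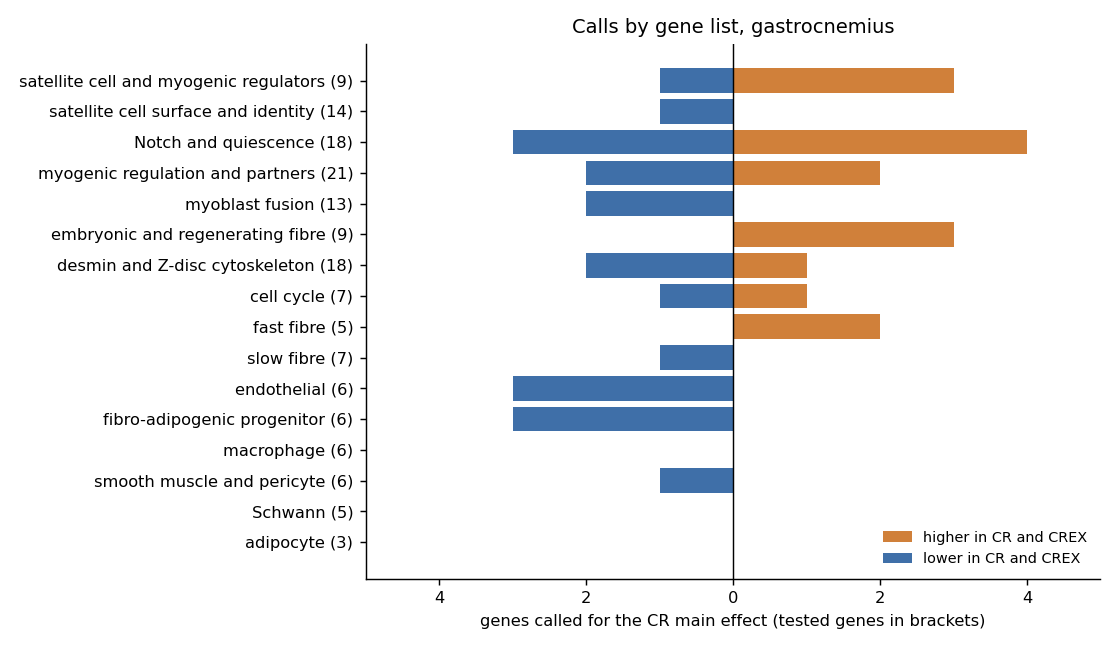
Number of DEGs for the CR main effect in each gene list, higher in CR and CREX to the right and lower to the left, with the number of tested genes in brackets. The satellite cell and myogenic regulator genes had 3 higher and 1 lower of 9, the endothelial and fibro-adipogenic progenitor lists had lower DEGs and none higher, and the fast fibre list had 2 higher.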

How the data were processed

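Gastrocnemius RNA of 14 mice was sequenced on a BGIseq platform, each mouse as its own library. The authors used trim-galore for read trimming, STAR (2.7.10a in the submitters' processing notes) for mapping to mm10 and RSEM for quantification; the version of RSEM differs between the sources, and the annotation is not given in the sources used here. The deposited expected counts are not normalized and are listed by symbol; 27 rows whose symbol was a date or was shared were left out. Expected counts were rounded to whole numbers.

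R 4.3.3 with edgeR 4.0.16 and DESeq2 1.42.0, and Python 3.11.15, were used. Each comparison of groups was fitted on its own libraries with edgeR's robust quasi-likelihood test (TMM, filterByExpr), and the CR main effect, EX main effect and interaction in 1 fit of the 4 groups, with Benjamini-Hochberg adjustment over all genes tested. DEGs changed more than 1.5-fold with an adjusted p below 0.05 (interaction: adjusted p alone). The SE is the log2 fold change divided by the square root of F. The scripts were tested on simulated data.

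The members and lists were chosen with earlier results of these data known. All 10 members are named, and from each list up to 3 genes with the smallest p for the CR main effect and 2 for single comparisons; others are said to be named after their values were seen. Likeness was ranked by Pearson correlation of log2 CPM (prior count 2). Alternatives were DESeq2, 1 edgeR fit of all groups, RLE size factors, other filters, a replicate block, unadjusted p, calls on adjusted p alone and each mouse left out. Leaving out CREX replicates 2 and 3 and scaling by library totals were added after the data were seen. BAT libraries were used for levels only. One gene that the likeness rule selects is not reported here.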

Additional observations from a re-analysis of the deposited data

Results flagged for a closer look

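Among groups of 4 muscle libraries, Dixon's test was applied to 20 sets of values, and chance flags about 1 in 20 such sets. Mymk was far higher in 1 control mouse, 0.648 CPM from 14 counts, than in the other control mice, each with 1 count. Des was farther from the others in 1 EX mouse, at 3294 CPM, than Dixon's critical value allows; the other EX mice stood at 2979 to 3001 CPM.

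The BAT libraries, used in no comparison here, held 9 of the 10 genes with more than 3 counts and above the highest BAT control library. Calcr had at most 2 counts in a BAT library and 0 in the BAT controls. BAT EX replicate 3 had the highest level of Pax7 (0.370 CPM), Cdh15 (2.22 CPM), Myf5 (0.370 CPM), Myod1 (3.29 CPM), Mef2c (38.8 CPM) and Mymk (6.83 CPM, from 166 counts). BAT CREX replicate 3 had the highest level of Myf6 (6.04 CPM) and Des (276 CPM), and BAT CREX replicate 2 that of Vcam1 (4.87 CPM). The muscle actin Acta1 ranged from 0.740 to 1837 CPM among the BAT libraries, and its part in these values was not tested. The Mymk level of BAT EX replicate 3 was above that of every muscle library, whose highest was 0.769 CPM.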

How the results depend on the processing

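The log2 fold changes of the members that were called kept their sign in all alternatives. For CR against control the count of 1 DEG became 2 with DESeq2 on the same groups or on all groups, unadjusted p, library totals, genes of low count kept, or RLE size factors, and 0 in 1 edgeR fit of all muscle groups. It ran from 0 to 2 with each mouse left out. For CREX against EX the count of 3 ran from 0 to 4 with each mouse left out. For the CR main effect the count of 4 ran from 2 to 4 with each mouse left out, with 2 without CREX replicate 2, and was 2 without CREX replicates 2 and 3. The cause was not tested. For both EX contrasts, the EX main effect and the interaction the count stayed at 0 with each mouse left out. The 31 other list genes called for the CR main effect included 17 that were still called without CREX replicates 2 and 3. The share of all genes called without CREX replicates 2 and 3 is not given. Over all comparisons, 1064 of the members' log2 fold changes kept their side of the thresholds, 12 passed them newly and 28 no longer passed. Of the list counts, 1852 stayed within 1.5 times their value while 218 did not.

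Same-numbered mice are different animals, and the correlations of their deviations ran from -0.38 to 0.29. Differently numbered mice were not compared in this way, so these values cannot tell whether same-numbered mice share more than the number. With a replicate block 1 DEG was found for CR against control, 2 for CREX against EX, 4 for the CR main effect and 0 for the others. Library totals in place of TMM shifted the median log2 fold change of all genes to 0.14 for CR against control, 0.16 for CREX against EX and 0.15 for the CR main effect, and the 4 DEGs of the CR main effect kept their call. Depth limits Mymk, Calcr, Myf5, Vcam1 and Pax7 most, with at most 19, 18, 47, 59 and 68 counts per muscle library.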

Other observations

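Of all tested genes, those whose log2 CPM over the 14 muscle libraries was most like that of each DEG are given as a description; the points share the differences between groups and the fibre markers. For Cdh15 they were Ipo4 (Pearson r = 0.979), Nploc4 (0.972) and Keap1 (0.971), and for Myf6 they were Faf2 (0.970) and Phf7 (0.967). For Myod1 they were Ciz1 (0.939), Upf3a (0.932) and Ahctf1 (0.902), and for Vcam1 they were St6galnac3 (0.947), Itga6 (0.944) and Rbm28 (0.929). Taken as deviations from the group means, the first of each set had r = 0.940 (Ipo4), 0.947 (Faf2), 0.860 (Ciz1) and 0.853 (St6galnac3).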
